A study of Mus musculus with 18 samples.

Results

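A set of 10 tumour chemokine genes of the Ccl and Cxcl families, namely Ccl2, Ccl5, Ccl7, Ccl20, Cxcl1, Cxcl2, Cxcl5, Cxcl10, Cxcl12 and Cxcl16, was followed in cancer cells grown with or without fibroblasts. These 10 genes were chosen by symbol, ignoring case, and all 10 were present in both count tables, which held 24455 rows for 168FARN and 24532 rows for LLC1. The breast cancer line 168FARN was paired with MMTV-CAFs, the fibroblasts of breast tumours arising in the MMTV-PyMT mouse model. The Lewis lung carcinoma line LLC1 was paired with wound healing fibroblasts taken from the dorsal skin of mice on day 10 after wounding. Cancer cells carrying GFP were grown as hanging drop spheroids either alone or with 3 fibroblasts per cancer cell, and were then sorted by their GFP before RNA was extracted. The fibroblasts carried either a non-targeting control guide (WT coculture) or a CRISPR/Cas9 guide that deleted Prrx1 (sgPrrx1 coculture). The cancer cells of all groups were unedited, so Prrx1 in these libraries checks no label. Each line was a single cell line with 1 fibroblast source, and each of the 6 groups had 3 libraries. Nothing stated whether the 3 came from separate cultures, so the p-values measure the spread between these libraries only. Line and fibroblast source changed together and cannot be told apart.

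Chemokines are small secreted proteins that draw leukocytes along a gradient, and each binds a few receptors with 7 membrane passes. CC chemokines such as Ccl2 and Ccl7 draw monocytes through CCR2, Ccl5 draws T cells and macrophages, and Ccl20 is the ligand of CCR6. Cxcl1, Cxcl2 and Cxcl5 draw neutrophils through CXCR2, Cxcl10 is an interferon-induced ligand of CXCR3, Cxcl12 binds CXCR4 and the scavenger Ackr3, and Cxcl16 is a membrane-bound ligand of CXCR6 that proteases can shed. Many of these genes are known to be switched on by NF-κB, and tumour cells and fibroblasts are both known sources of them.

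Most of the genes lie in family clusters on chromosomes 5 and 11 (GRCm38.p6, RefSeq annotation). Cxcl5 (chromosome 5, 90759298 to 90761625), Cxcl1 (chromosome 5, 90891245 to 90893121) and Cxcl2 (chromosome 5, 90903899 to 90905938) are neighbours, with Cxcl10 further along (chromosome 5, 92346638 to 92348889). Ccl2 (chromosome 11, 82035577 to 82037452), Ccl7 (chromosome 11, 82045712 to 82047525) and Ccl5 (chromosome 11, 83525778 to 83530518) lie near each other, and Cxcl16 is on the same chromosome (chromosome 11, 70454389 to 70459984). Ccl20 (chromosome 1, 83116766 to 83119167) and Cxcl12 (chromosome 6, 117168535 to 117181368) stand by themselves.

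RefSeq promoters were found for Ccl20, Cxcl1, Cxcl2, Cxcl10 and Cxcl12. All promoters found are shown. Cxcl1 and Cxcl2 are neighbours whose levels went opposite ways against cells alone in 168FARN. Ccl20 and Cxcl10 were called in both lines against cells alone, and Cxcl12 was highest with WT fibroblasts in 168FARN. Each sequence is the 250 bases before the annotated start on the gene's own strand (GRCm38.p6), and capitals mark matches, on either strand, to a κB-type motif (GGGNNNTTCC), an ISRE-type motif (GAAANNGAAA) or an AP-1-type motif (TGANTCA). The motifs were chosen after the sequences had been seen.
Cxcl1, chr5:90890995-90891244, plus strand: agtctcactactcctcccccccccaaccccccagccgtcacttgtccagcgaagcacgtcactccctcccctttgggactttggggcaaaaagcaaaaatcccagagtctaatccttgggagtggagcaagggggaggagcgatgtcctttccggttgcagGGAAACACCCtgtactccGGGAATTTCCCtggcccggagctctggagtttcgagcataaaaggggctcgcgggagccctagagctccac
Cxcl2, chr5:90903649-90903898, plus strand: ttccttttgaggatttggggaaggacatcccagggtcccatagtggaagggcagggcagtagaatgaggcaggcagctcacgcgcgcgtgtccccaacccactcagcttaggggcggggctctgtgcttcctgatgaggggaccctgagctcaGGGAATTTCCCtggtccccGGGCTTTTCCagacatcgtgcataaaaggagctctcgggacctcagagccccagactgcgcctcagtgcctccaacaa
Cxcl10, chr5:92348890-92349139, minus strand: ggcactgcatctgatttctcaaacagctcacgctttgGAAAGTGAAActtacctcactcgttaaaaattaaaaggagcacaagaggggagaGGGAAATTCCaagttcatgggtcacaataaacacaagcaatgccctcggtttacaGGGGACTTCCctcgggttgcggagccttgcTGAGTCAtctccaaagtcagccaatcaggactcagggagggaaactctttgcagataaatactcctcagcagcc
Ccl20, chr1:83116516-83116765, plus strand: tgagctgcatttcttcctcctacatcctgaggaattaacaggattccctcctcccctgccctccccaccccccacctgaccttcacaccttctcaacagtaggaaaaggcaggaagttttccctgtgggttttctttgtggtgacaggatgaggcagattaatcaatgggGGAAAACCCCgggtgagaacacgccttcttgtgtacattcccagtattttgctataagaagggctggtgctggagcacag
Cxcl12, chr6:117168285-117168534, plus strand: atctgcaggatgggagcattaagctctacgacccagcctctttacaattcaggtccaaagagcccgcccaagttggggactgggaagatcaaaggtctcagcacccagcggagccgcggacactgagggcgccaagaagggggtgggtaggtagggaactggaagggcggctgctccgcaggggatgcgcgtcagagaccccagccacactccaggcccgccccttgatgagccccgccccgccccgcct

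Both Cxcl1 and Cxcl2 held GGGAATTTCC, which also matches the κB-type motif on the opposite strand 1 base on. It lay from 71 to 62 bases before the start in Cxcl1 and from 97 to 88 bases before it in Cxcl2, and each promoter had 1 further κB-type match. Cxcl10 had 2 κB-type matches, the only ISRE-type match (GAAAGTGAAA, 213 to 204 bases before the start) and the only AP-1-type match of the 5. Ccl20 had a single κB-type match on its minus strand, 80 to 71 bases before the start. The Cxcl12 window held none of the 3 motifs. Among 32851 mouse promoters of the same length, 4.65% held the κB-type motif, 2.98% the ISRE-type and 6.75% the AP-1-type.

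The libraries held 48315037 to 68933002 counts in 168FARN and 66129117 to 103997557 in LLC1. The biological coefficient of variation in edgeR was 0.0728 in 168FARN and 0.228 in LLC1. LLC1 sgPrrx1 replicate 3 stood apart: its counts differed from its 2 replicates with a chi-square per degree of freedom of 750 and 810, against 26.6 between those 2. Without it the LLC1 coefficient was 0.112, so LLC1 tests of the chemokine genes that turn on it and LLC1 counts over gene lists are also given without that library. Each other LLC1 gene named below as higher or lower in WT coculture than alone was called in the same direction without it. Below, CPM means a gene's counts scaled to a common library size, and a gene was called when its adjusted p in edgeR's quasi-likelihood test was under 0.05 over all genes of the fit.

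Markers of other cell types were measured beside the chemokines. In 168FARN the summed level of 18 fibroblast markers was 211 to 217 CPM without fibroblasts, 1104 to 1193 CPM with WT fibroblasts and 347 to 358 CPM with sgPrrx1 fibroblasts. Postn, Thy1 and Tnc had no count alone, and Fap had none in either coculture. In LLC1 the same sum was 1744 to 1828, 1298 to 1324 and 1645 to 1713 CPM, most of it from Col3a1, and without Col3a1 it was 188 to 204, 235 to 243 and 237 to 256 CPM. Leukocyte markers summed to 77.1 to 114 CPM in 168FARN and 26.8 to 90.5 CPM in LLC1, with Cd3e at 0 in all 18 libraries and Ptprc at 0 in all 168FARN libraries. Endothelial markers summed to 3.58 to 9.09 CPM in 168FARN and to 0.275 to 6.73 CPM in LLC1. Of the epithelial markers, Krt8 was at 323 to 422 CPM in 168FARN, while the whole list summed to at most 1.30 CPM in LLC1 and Epcam had no count there. The part of other cells in the results below was not tested, and in bulk samples a change in the share of a cell type and a change in RNA per cell cannot be told apart.

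**Figure D1:**
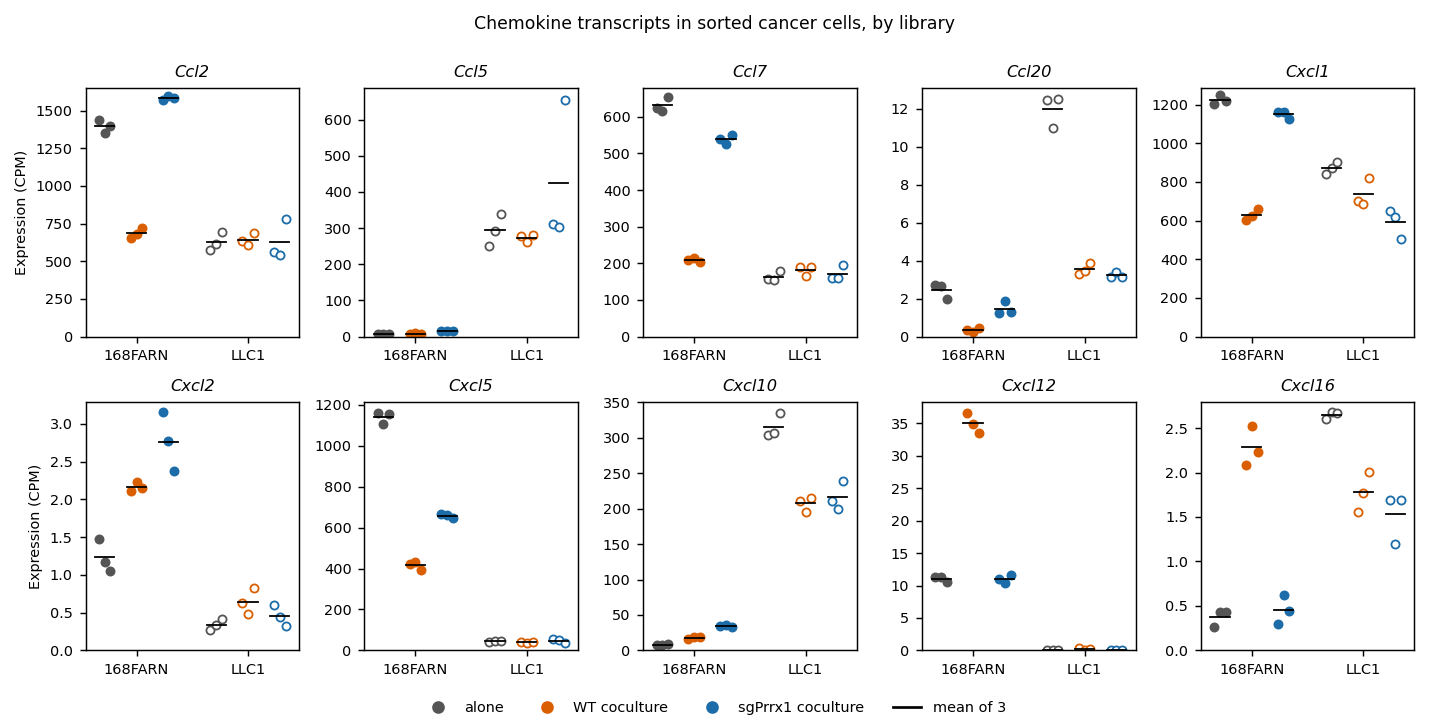
Expression of each chemokine gene in CPM (vertical axis from 0, a separate scale for each gene) in the 3 libraries of each group, 168FARN filled and LLC1 open, with the group mean as a line. Ccl2, Ccl7, Cxcl1 and Cxcl5 sat lowest in WT coculture among the 168FARN groups, Cxcl12 and Cxcl16 sat highest there, and a single LLC1 sgPrrx1 library reached 656 CPM for Ccl5.

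In 168FARN, the 4 most abundant chemokines fell when the cells were grown with WT fibroblasts and stood higher again with sgPrrx1 fibroblasts. Ccl2, the main monocyte attractant, was at 1437, 1354 and 1396 CPM without fibroblasts, 654, 679 and 724 CPM with WT fibroblasts and 1567, 1598 and 1584 CPM with sgPrrx1 fibroblasts. No library of one group overlapped another group, and the sgPrrx1 libraries were the highest. Ccl2 was 2.04-fold lower in WT coculture than alone (log2 fold change -1.03, SE 0.0334, edgeR adjusted p 8.73e-10) and 2.31-fold higher in sgPrrx1 than in WT coculture (edgeR adjusted p 8.91e-10). Against cells alone it was 1.13-fold higher in sgPrrx1 coculture (edgeR adjusted p 0.000912).

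Ccl7, the second CCR2 ligand, was at 624, 617 and 654 CPM without fibroblasts, 208, 214 and 203 CPM with WT fibroblasts and 539, 525 and 550 CPM with sgPrrx1 fibroblasts. Its WT libraries were far below the others, and its sgPrrx1 libraries stayed below every library of cells alone. The fall in WT coculture was 3.03-fold (log2 fold change -1.60, SE 0.0306, edgeR adjusted p 1.42e-11), and the level in sgPrrx1 was 2.58-fold that in WT coculture (edgeR adjusted p 1.76e-10). From cells alone to sgPrrx1 coculture Ccl7 fell by 0.23 on the log2 scale (edgeR adjusted p 8.07e-05). The 2 CCR2 ligands did not keep step. The count of Ccl2 was 2.13 to 2.30 times that of Ccl7 alone, 3.15 to 3.56 times in WT coculture and 2.88 to 3.04 times in sgPrrx1 coculture.

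Among the CXCR2 ligands, Cxcl1 was at 1205, 1250 and 1217 CPM without fibroblasts, 601, 626 and 659 CPM with WT fibroblasts and 1163, 1165 and 1127 CPM with sgPrrx1 fibroblasts. It fell 1.95-fold in WT coculture (log2 fold change -0.96, SE 0.0305, edgeR adjusted p 7.51e-10) and was 1.83-fold higher in sgPrrx1 than in WT coculture (edgeR adjusted p 3.81e-09). The sgPrrx1 libraries lay just under those of cells alone, by 0.09 on the log2 scale (log2 fold change -0.09, SE 0.0303, edgeR adjusted p 0.0318). That small difference ranged to an adjusted p of 0.122 over the alternatives and lost its call under 6 of 17 alternatives, RLE scaling and 5 fits without 1 library (alone replicate 2 or 3, or any 1 sgPrrx1 library).

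Cxcl5, a second neutrophil attractant, was at 1160, 1107 and 1157 CPM without fibroblasts, 421, 432 and 394 CPM with WT fibroblasts and 666, 660 and 645 CPM with sgPrrx1 fibroblasts. Its 3 groups did not overlap, and with sgPrrx1 fibroblasts it remained well under the level alone. It was 2.75-fold lower in WT coculture (log2 fold change -1.46, SE 0.0329, edgeR adjusted p 5.22e-11), 1.74-fold lower in sgPrrx1 coculture (edgeR adjusted p 8.68e-09), and 1.58-fold higher in sgPrrx1 than in WT coculture (edgeR adjusted p 4.20e-08). The counts of Cxcl1 and Cxcl5 were close alone, with ratios of 1.04 to 1.13, and the ratio was 1.43 to 1.67 in WT coculture and 1.75 to 1.77 in sgPrrx1 coculture.

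Cxcl2, the third CXCR2 ligand, was scarce and went the other way. It was at 1.48, 1.17 and 1.05 CPM without fibroblasts, 2.10, 2.23 and 2.15 CPM with WT fibroblasts and 3.15, 2.78 and 2.37 CPM with sgPrrx1 fibroblasts, from 51 to 166 counts a library. It was 1.76-fold higher in WT coculture (log2 fold change 0.81, SE 0.171, edgeR adjusted p 0.00155) and 2.24-fold higher in sgPrrx1 coculture (edgeR adjusted p 0.000202) than alone. Every sgPrrx1 library was above every WT library, but that difference did not pass (log2 fold change 0.35, SE 0.159, edgeR adjusted p 0.0795, and 0.0484 without sgPrrx1 replicate 3). Its neighbour Cxcl1, whose promoter holds the same 10 κB-type letters, fell in WT coculture.

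Ccl20, the CCR6 ligand, was at 2.71, 2.65 and 1.96 CPM without fibroblasts, 0.327, 0.234 and 0.467 CPM with WT fibroblasts and 1.25, 1.86 and 1.29 CPM with sgPrrx1 fibroblasts. It was the member that fell furthest in WT coculture, 7.29-fold (log2 fold change -2.87, SE 0.277, edgeR adjusted p 4.31e-06), on 16 to 23 counts a library. In sgPrrx1 it was 4.39-fold higher than in WT coculture (edgeR adjusted p 6.92e-05) and 1.66-fold lower than alone (edgeR adjusted p 0.0225). The last call was lost when 1 library was left out (alone replicate 1 or 2, or sgPrrx1 replicate 1 or 3), with adjusted p values up to 0.0867.

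Ccl5 and Cxcl10 were highest with sgPrrx1 fibroblasts. Cxcl10, the interferon-induced CXCR3 ligand, was at 6.88, 7.94 and 8.32 CPM without fibroblasts, 16.7, 18.5 and 18.4 CPM with WT fibroblasts and 34.5, 35.6 and 32.8 CPM with sgPrrx1 fibroblasts. The 3 groups formed 3 steps with no overlap. Cxcl10 was 2.31-fold higher in WT coculture (log2 fold change 1.21, SE 0.0700, edgeR adjusted p 7.68e-08) and 4.44-fold higher in sgPrrx1 coculture (log2 fold change 2.15, edgeR adjusted p 1.22e-09) than alone, and 1.92-fold higher in sgPrrx1 than in WT coculture (edgeR adjusted p 3.79e-07). Ccl5 was at 6.64, 6.36 and 7.41 CPM without fibroblasts, 6.82, 8.48 and 7.95 CPM with WT fibroblasts and 15.1, 16.7 and 15.1 CPM with sgPrrx1 fibroblasts. Its WT libraries overlapped those of cells alone (log2 fold change 0.19, 95% interval -0.02 to 0.40, edgeR adjusted p 0.0982), a comparison that passed when WT replicate 1 was left out (adjusted p 0.0199). In sgPrrx1 coculture Ccl5 was 2.31-fold higher than alone (edgeR adjusted p 1.18e-06) and 2.02-fold higher than in WT coculture (edgeR adjusted p 2.72e-06).

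Cxcl12 and Cxcl16 were highest in WT coculture. Cxcl12, the CXCR4 ligand, was at 11.3, 11.3 and 10.6 CPM without fibroblasts, 36.5, 34.9 and 33.6 CPM with WT fibroblasts and 11, 10.4 and 11.6 CPM with sgPrrx1 fibroblasts. The sgPrrx1 libraries overlapped those of cells alone, with a log2 fold change of -0.01 (95% interval -0.14 to 0.11). Cxcl12 was 3.16-fold higher in WT coculture than alone (log2 fold change 1.66, SE 0.0534, edgeR adjusted p 8.17e-10) and 3.18-fold lower with sgPrrx1 than with WT fibroblasts (edgeR adjusted p 1.95e-09). Cxcl16, the membrane-bound CXCR6 ligand, was at 0.267, 0.436 and 0.432 CPM without fibroblasts, 2.09, 2.53 and 2.23 CPM with WT fibroblasts and 0.292, 0.619 and 0.440 CPM with sgPrrx1 fibroblasts. It rose 5.95-fold in WT coculture (log2 fold change 2.57, SE 0.268, edgeR adjusted p 7.94e-06) and was 4.98-fold lower with sgPrrx1 than with WT fibroblasts (edgeR adjusted p 1.79e-05), while sgPrrx1 coculture and cells alone overlapped (log2 fold change 0.26, 95% interval -0.44 to 0.95).

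Fibroblast markers were mostly highest in WT coculture too, and many of them were also above the level of cells alone with sgPrrx1 fibroblasts. Col1a2, a collagen chain, was at 0.0824 to 0.125 CPM without fibroblasts, 139 to 153 CPM with WT fibroblasts and 11.4 to 14.5 CPM with sgPrrx1 fibroblasts. Dcn, a fibroblast proteoglycan, was at 0.187 to 0.329, 89.2 to 95.1 and 41.9 to 44.2 CPM in the same groups. Of 16 fibroblast markers tested, 14 rose in WT coculture and 12 rose in sgPrrx1 coculture, and 13 were lower with sgPrrx1 than with WT fibroblasts, where 33.4%, 25.7% and 33.1% of all genes were called in these directions. Levels of Cxcl12 and Cxcl16 in the fibroblasts were not analysed here, and the part of fibroblast RNA in these 2 rises was not tested. Cxcl16 is also uncertain because it overlaps Zmynd15, which had 496 to 780 counts in 168FARN libraries and at most 12 in LLC1, and whether the counting used strand was not stated. Cxcl10 overlaps Art3, which had at most 24 counts in any library, and Ccl5 overlaps the long non-coding gene Gm32650, which has no row in either table.

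Over the 10 genes, WT fibroblasts went with 4 higher and 5 lower levels in 168FARN, where 33.4% of all 13540 genes tested were called higher and 30.7% lower. In sgPrrx1 coculture against cells alone 4 were higher and 4 lower, beside 25.7% and 24.1% of all genes. Between the cocultures 7 were higher in sgPrrx1 and 2 lower, beside 26.9% and 33.1% of all genes. A call was thus common for any gene in 168FARN. The median log2 fold changes of the 10 genes were -0.39, 0.09 and 0.91 in these comparisons, beside 0.0061, 0.0046 and -0.028 over all genes tested. The comparisons share the WT or the alone libraries, so they are not independent of each other.

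**Figure D2:**
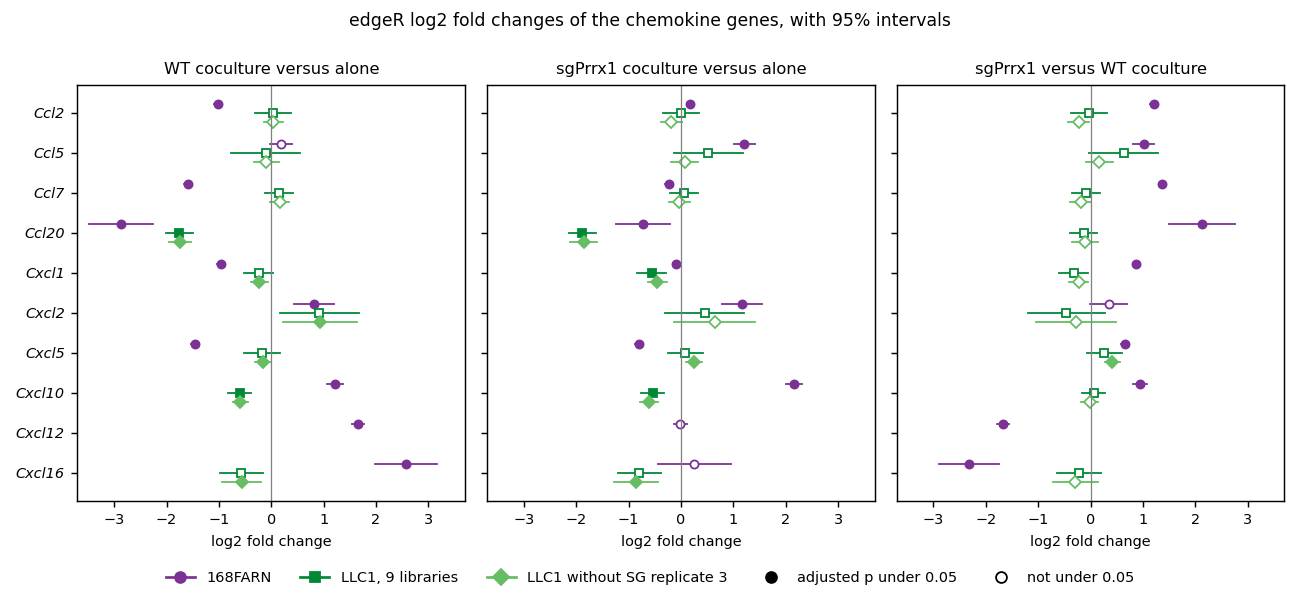
Fitted log2 fold changes (horizontal axis) with 95% intervals for each chemokine gene in the 3 comparisons, for 168FARN, LLC1 and LLC1 without sgPrrx1 replicate 3, filled where the adjusted p was under 0.05. Intervals for 168FARN are mostly narrow and away from 0, Ccl20 lies below 0 in both lines against cells alone, and Cxcl10 against cells alone lies above 0 in 168FARN and below 0 in LLC1. Cxcl12 is left out for LLC1, where cells alone had no count.

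In LLC1 the chemokine genes gave fewer calls, and Ccl20 and Cxcl10 fell in both cocultures. Ccl20 was at 12.4, 11 and 12.5 CPM without fibroblasts, 3.30, 3.47 and 3.86 CPM with WT fibroblasts and 3.16, 3.42 and 3.13 CPM with sgPrrx1 fibroblasts. All 6 coculture libraries were under every library of cells alone, and the 2 cocultures overlapped. Ccl20 fell by 1.76 on the log2 scale in WT coculture (SE 0.112, edgeR adjusted p 0.000220) and by 1.89 in sgPrrx1 coculture (SE 0.113, edgeR adjusted p 0.000285). Without sgPrrx1 replicate 3 the values were -1.75 and -1.86 (edgeR adjusted p 1.24e-05 and 4.29e-05).

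Cxcl10 was at 304, 307 and 335 CPM without fibroblasts in LLC1, 211, 196 and 215 CPM with WT fibroblasts and 211, 200 and 238 CPM with sgPrrx1 fibroblasts. It was 1.52-fold lower in WT coculture (log2 fold change -0.60, SE 0.0983, edgeR adjusted p 0.0105) and 1.46-fold lower in sgPrrx1 coculture (log2 fold change -0.54, SE 0.0982, edgeR adjusted p 0.0260). Without sgPrrx1 replicate 3 these adjusted p values were 0.000238 and 0.000868. The WT call was lost without alone replicate 3, WT replicate 1 or WT replicate 2 (adjusted p up to 0.0556), and the sgPrrx1 call was lost without any 1 library other than sgPrrx1 replicate 3, and when only the 2 groups were fitted (adjusted p up to 0.138).

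Cxcl1 in LLC1 was at 842, 871 and 902 CPM without fibroblasts, 704, 688 and 822 CPM with WT fibroblasts and 647, 620 and 506 CPM with sgPrrx1 fibroblasts. No coculture library reached the level alone, and the lowest library was sgPrrx1 replicate 3. The fall passed in sgPrrx1 coculture (log2 fold change -0.56, SE 0.12, edgeR adjusted p 0.0414) and not in WT coculture (log2 fold change -0.24, SE 0.12, edgeR adjusted p 0.268). Without sgPrrx1 replicate 3 both passed, at -0.45 (edgeR adjusted p 0.00416) and -0.23 (edgeR adjusted p 0.0259). With a block for replicate number, the adjusted p of the sgPrrx1 fall with 9 libraries was 0.0695. That call was lost under 12 of 17 alternatives, 8 of them fits without 1 other library, with adjusted p values up to 0.166.

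Cxcl16 in LLC1 was at 2.60, 2.68 and 2.67 CPM without fibroblasts, 1.55, 1.77 and 2.0 CPM with WT fibroblasts and 1.7, 1.20 and 1.69 CPM with sgPrrx1 fibroblasts, the opposite of its rise in 168FARN. All coculture libraries were under those of cells alone. The log2 fold changes were -0.58 (SE 0.180, edgeR adjusted p 0.0894) in WT and -0.79 (SE 0.181, edgeR adjusted p 0.0501) in sgPrrx1 coculture, and neither passed. Without sgPrrx1 replicate 3 both passed, with edgeR adjusted p values of 0.0226 and 0.0114. Over 17 alternatives the WT fall was called in 4 and the sgPrrx1 fall in 6, with DESeq2 and limma voom calling both.

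Cxcl2 in LLC1 was at 0.275, 0.332 and 0.411 CPM without fibroblasts, 0.621, 0.477 and 0.821 CPM with WT fibroblasts and 0.603, 0.446 and 0.325 CPM with sgPrrx1 fibroblasts, on 19 to 64 counts a library. Every WT library was above every library of cells alone (log2 fold change 0.91, SE 0.330, edgeR adjusted p 0.132, and 0.0395 without sgPrrx1 replicate 3). Cxcl5 was at 42.8, 45.1 and 45.3 CPM without fibroblasts, 40.9, 36.9 and 39.7 CPM with WT fibroblasts and 55.1, 50.0 and 36.1 CPM with sgPrrx1 fibroblasts, where replicate 3 was the lowest library of all 9. None of its comparisons passed in edgeR with 9 libraries, while limma voom with sample quality weights called it higher in sgPrrx1 coculture than alone (adjusted p 0.00300) and than in WT coculture (adjusted p 0.00125). Without that library Cxcl5 was lower in WT coculture than alone (log2 fold change -0.17, edgeR adjusted p 0.0490), higher in sgPrrx1 coculture than alone (0.25, edgeR adjusted p 0.0240) and higher in sgPrrx1 than in WT coculture (log2 fold change 0.42, SE 0.0659, edgeR adjusted p 0.0228).

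The CCR2 ligands and Ccl5 gave no call in LLC1 in edgeR, with or without sgPrrx1 replicate 3. Ccl2 was at 575, 614 and 694 CPM without fibroblasts, 633, 605 and 686 CPM with WT fibroblasts and 559, 544 and 778 CPM with sgPrrx1 fibroblasts, and Ccl7 was at 155 to 178, 164 to 190 and 159 to 195 CPM. The 3 groups overlapped for both genes, with 95% intervals of -0.32 to 0.38 for Ccl2 and -0.12 to 0.42 for Ccl7 on the log2 scale in WT coculture against cells alone. Between the cocultures the log2 fold change of Ccl2 was -0.03, and -0.22 without sgPrrx1 replicate 3 (edgeR adjusted p 0.137), and that of Ccl7 was -0.08, and -0.19 without it (edgeR adjusted p 0.195). On 9 libraries limma voom with sample quality weights called both lower in sgPrrx1 than in WT coculture (adjusted p 0.0159 and 0.0111) and Ccl7 higher in WT coculture than alone (adjusted p 0.00439). Ccl5 was at 250, 293 and 340 CPM without fibroblasts, 278, 261 and 281 CPM with WT fibroblasts and 313, 303 and 656 CPM with sgPrrx1 fibroblasts. The value of 656 CPM came from sgPrrx1 replicate 3. Between the cocultures the log2 fold change of Ccl5 was 0.63 (95% interval -0.02 to 1.29, edgeR adjusted p 0.423) with that library and 0.17 (95% interval -0.10 to 0.43, edgeR adjusted p 0.362) without it.

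Cxcl12 was close to absent in LLC1. It had no count in the 3 libraries of cells alone, 29, 7 and 17 counts in WT coculture and 2, 0 and 0 counts in sgPrrx1 coculture, and did not pass the filter on low counts with 9 libraries. Against a floor of 3 counts in each library alone, the mean of 0.227 CPM in WT coculture was at least 6.04-fold higher. The 53 counts summed over WT coculture and the 2 over sgPrrx1 coculture gave a ratio of CPM of 28.7 (exact 95% interval 7.57 to 243, counting error only). Without sgPrrx1 replicate 3 the gene passed the filter and was called higher in WT coculture than alone (edgeR adjusted p 0.00726) but not different between the cocultures (edgeR adjusted p 0.0699). In the other fits without 1 library that tested it, the adjusted p for WT coculture against cells alone was 0.0446 without sgPrrx1 replicate 2 and up to 0.0896 elsewhere, and only the former passed. Col1a2 in the same libraries was at 0 to 0.0642 CPM without fibroblasts, 8.22 to 9.27 CPM with WT fibroblasts and 0.223 to 0.311 CPM with sgPrrx1 fibroblasts. Not all fibroblast markers ran this way. Of 12 tested, 4 rose and 2 fell (Col3a1 and Pdgfrb) in WT coculture, beside 4.25% and 4.58% of all genes. Without sgPrrx1 replicate 3, 7 of 13 rose and 4 fell, beside 22% and 22.2%. Dcn rose in WT (log2 fold change 3.40) and sgPrrx1 coculture (2.91), and Dpt was called higher only with sgPrrx1 fibroblasts (1.46). The part of fibroblast RNA in the Cxcl12 counts was not tested.

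Of 9 chemokine genes tested in LLC1, 0 rose and 2 fell with WT fibroblasts, where 4.25% of 12873 genes were called higher and 4.58% lower. In sgPrrx1 coculture 0 were higher and 3 lower, beside 2.01% and 2.31% of all genes. Between the cocultures edgeR called 0 of the 9 in either direction, beside 0% of all genes higher and 0.0544% lower, and only Cxcl1 had an unadjusted p under 0.05 (0.0276). DESeq2 also called none and limma voom with sample quality weights called 4, beside 501 and 4681 of 12873 genes. Without sgPrrx1 replicate 3 and with 10 genes tested, 2 were higher and 5 lower in WT coculture (22% and 22.2% of all genes), 1 was higher and 4 lower in sgPrrx1 coculture (12.5% and 14.2%), and 1 was higher and 0 lower between the cocultures (2.94% and 2.75%). The median log2 fold changes with 9 libraries were -0.18, -0.0016 and -0.080, beside -0.016, -0.0062 and 0.020 over all genes. When sgPrrx1 replicate 3 was left out they were -0.13, -0.11 and -0.20, beside -0.0019, -0.0044 and -0.0060 over all genes.

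**Figure D3:**
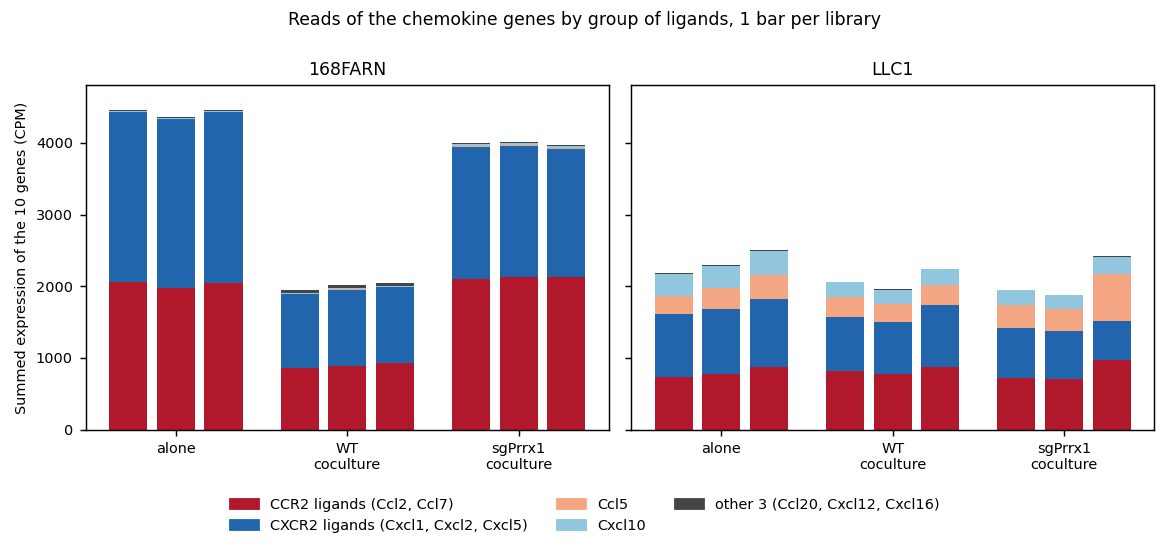
Summed CPM of the 10 chemokine genes (vertical axis from 0) in each library, 1 bar per library, coloured by group of ligands. In 168FARN the bars stand at 4358 to 4455 CPM without fibroblasts, 1948 to 2045 CPM with WT fibroblasts and 3970 to 4016 CPM with sgPrrx1 fibroblasts, and in LLC1 they stand between 1880 and 2510 CPM in all groups.

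Summed over the 10 genes, the reads made up 4423 ± 55.7 CPM (SD, n = 3) of 168FARN alone, 2004 ± 50.0 CPM with WT fibroblasts and 3995 ± 23.6 CPM with sgPrrx1 fibroblasts. In LLC1 the sums were 2332 ± 164, 2086 ± 143 and 2082 ± 290 CPM (SD, n = 3), and the groups overlapped. The sgPrrx1 sums were 1951, 1880 and 2415 CPM, and without replicate 3, the highest, the other 2 were below all WT and alone libraries. The WT sums were 2061, 1957 and 2240 CPM, so the sgPrrx1 sum of 1951 CPM lay only just under the lowest of them. The 168FARN sum was carried by 2 classes. CCR2 ligands held 45.8% ± 0.544 of it alone, 44.6% ± 0.628 in WT coculture and 53.1% ± 0.581 in sgPrrx1 coculture, and CXCR2 ligands held 53.5% ± 0.528, 52.2% ± 0.544 and 45.3% ± 0.564 (SD, n = 3). In LLC1 Ccl5 held 12.6% ± 1.07 and Cxcl10 held 13.5% ± 0.336 of the sum alone, against 0.154% ± 0.0111 and 0.175% ± 0.0175 in 168FARN alone (SD, n = 3). These are shares of reads, not scaled by transcript length.

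Scaled by the longest coding transcript of each gene in GENCODE M1, the order of the levels in 168FARN alone was Ccl2 (1717 CPM per kb), Cxcl1 (1285), Ccl7 (789) and Cxcl5 (690 CPM per kb), with Ccl5 next at 12.8 and the other 5 at 0.140 to 7.05 CPM per kb. The first 4 kept that order in both cocultures. In LLC1 alone the order was Cxcl1 (915 CPM per kb), Ccl2 (772), Ccl5 (554), Cxcl10 (288) and Ccl7 (204 CPM per kb), with Cxcl5 at 26.8 and Cxcl12 at 0. In WT coculture Ccl2 and Cxcl1 stood nearly level there, at 788 and 774 CPM per kb.

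Before any fibroblast was added, all 10 genes differed between the lines in a joint edgeR fit of 18 libraries. LLC1 alone was higher for Ccl5 (46.7-fold), Cxcl10 (44.0-fold), Cxcl16 (7.45-fold) and Ccl20 (5.28-fold), with edgeR adjusted p values of 5.09e-11, 2.54e-15, 5.35e-08 and 2.07e-08. It was lower for Cxcl5 (23.9-fold), Ccl7 (3.59-fold), Cxcl2 (3.36-fold), Ccl2 (2.06-fold) and Cxcl1 (1.30-fold), with edgeR adjusted p values of 3.83e-13, 3.05e-11, 2.36e-05, 3.57e-07 and 0.00167. Cxcl12 was at least 274-fold lower in LLC1, set against the floor of 3 counts. Over all 14365 genes of that fit, 33.2% were called higher and 37.7% lower, so a difference between the lines was common.

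Ordered over the 6 groups on the joint scale, Ccl5 and Cxcl10 were higher in all LLC1 groups than in any 168FARN group, and Cxcl5, Cxcl2 and Cxcl12 were higher in all 168FARN groups. Ccl20 also ran from the 3 LLC1 groups down to 168FARN WT coculture, at a mean of 12.4 CPM at the top and 0.332 CPM at the bottom. For Ccl2 the 168FARN sgPrrx1 and alone groups stood first and second and apart, while the other 4 groups, 168FARN WT coculture among them, overlapped their neighbours at means of 644 to 671 CPM. For Ccl7 168FARN alone and sgPrrx1 coculture stood first and second, with the 3 LLC1 groups and 168FARN WT coculture at means of 169 to 202 CPM overlapping their neighbours. For Cxcl16 the groups ran from LLC1 alone (2.74 CPM) to 168FARN alone (0.363 CPM), and 168FARN WT coculture overlapped LLC1 WT coculture.

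The response to WT fibroblasts differed between the lines for 8 of the 10 genes (adjusted p under 0.05 for the interaction in edgeR), beside 29.4% of all genes. Ccl2, Ccl7, Cxcl1 and Cxcl5 fell in 168FARN and gave no call in LLC1 with 9 libraries (Cxcl1 and Cxcl5 were called lower there without sgPrrx1 replicate 3), and the difference in log2 fold change (LLC1 minus 168FARN) was 1.06, 1.75, 0.72 and 1.28 (edgeR adjusted p 7.83e-05, 4.06e-08, 0.000632 and 3.68e-05). Ccl20 fell in both lines, by 1.11 less on the log2 scale in LLC1 (difference 1.11, SE 0.286, edgeR adjusted p 0.00877). For Cxcl10 the difference was -1.81 (SE 0.114, edgeR adjusted p 2.79e-08), with a rise in 168FARN and a fall in LLC1, and for Cxcl16 it was -3.15 (SE 0.329, edgeR adjusted p 4.81e-06). Cxcl12 also passed, but its fitted value rests on LLC1 libraries without a count. Ccl5 and Cxcl2 did not pass, with 95% intervals of -0.95 to 0.36 and -0.64 to 0.84.

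For sgPrrx1 coculture against cells alone the lines differed in 4 of the 10 genes, beside 12.1% of all genes: Cxcl10 (difference -2.71, edgeR adjusted p 1.11e-09), Ccl20 (-1.17, edgeR adjusted p 0.00860), Cxcl5 (0.87, edgeR adjusted p 0.00256) and Cxcl1 (-0.49, edgeR adjusted p 0.0232). The Cxcl1 call was lost under 5 of 25 alternatives, namely without 168FARN alone replicate 1 or 3, 168FARN sgPrrx1 replicate 1 or 2, or LLC1 alone replicate 3, with adjusted p values up to 0.0585. With a block for replicate number Ccl7 and Cxcl16 joined the 4 (edgeR adjusted p 0.0473 and 0.0369), 6 in all, beside 2010 of 14365 genes. Without LLC1 sgPrrx1 replicate 3 Ccl2, Ccl5 and Cxcl16 joined the 4, 7 in all, beside 28% of all genes. Between the cocultures the lines differed in 7 genes, beside 19.3% of all genes, with Ccl7 (-1.47, edgeR adjusted p 9.27e-07), Ccl20 (-2.27, edgeR adjusted p 7.69e-05) and Cxcl16 (2.09, edgeR adjusted p 0.000403) among them. Without that library the number was 9, all but Cxcl2, beside 44.5% of all genes. For WT coculture against cells alone it stayed at 8, beside 52.5% of all genes. The lines were deposited in separate tables with different fibroblasts, so the difference cannot be ascribed to the cancer line alone.

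The receptors that signal for these ligands were at or near 0 in the cancer cells, apart from Cxcr3 in 168FARN, while the scavenger Ackr3 was expressed in both lines. Ccr2, Cxcr4 and Cxcr6 had no count in any of the 18 libraries, and a count of 0 allows at most 0.0626 CPM in any of them. Ccr6 was seen in 1 library of 168FARN sgPrrx1 coculture at 0.0626 CPM, and Cxcr2, the receptor of Cxcl1, Cxcl2 and Cxcl5, was at no more than 0.188 CPM in 168FARN and had no count in LLC1. Cxcr3, the Cxcl10 receptor, was at 0.206 to 0.699 CPM without fibroblasts, 1.28 to 1.56 CPM with WT fibroblasts and 1.64 to 2.25 CPM with sgPrrx1 fibroblasts of 168FARN, and rose in both (log2 fold change 1.69 and 2.15, edgeR adjusted p 0.000745 and 0.000204). In LLC1 it did not exceed 0.106 CPM.

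Ackr3, the scavenging receptor of Cxcl12, rose in 168FARN from 0.618 to 0.925 CPM alone to 8.22 to 9.78 CPM with WT fibroblasts and 6.90 to 8.12 CPM with sgPrrx1 fibroblasts (log2 fold change 3.57, edgeR adjusted p 4.86e-09, and 3.25, edgeR adjusted p 1.78e-08). In LLC1 it was at 7.18 to 8.07 CPM without fibroblasts, 10.5 to 11 CPM with WT fibroblasts and 6.01 to 8.26 CPM with sgPrrx1 fibroblasts (edgeR adjusted p 0.0585 in WT coculture, and 0.000699 without sgPrrx1 replicate 3). Ccr7 rose in 168FARN (log2 fold change 0.95, edgeR adjusted p 2.36e-06). Ccrl2, a non-signalling chemokine receptor, fell in WT coculture of both lines, by 1.47 on the log2 scale in 168FARN (edgeR adjusted p 9.67e-05) and by 0.73 in LLC1 (edgeR adjusted p 0.0440). Over the 23 receptors listed, 8 were tested in 168FARN and 5 in LLC1, and in WT coculture 3 rose and 3 fell in 168FARN and 0 rose and 1 fell in LLC1, or 2 and 1 without sgPrrx1 replicate 3. All counts over lists in WT coculture are to be read beside the shares of all genes called, which were 33.4% higher and 30.7% lower in 168FARN, 4.25% and 4.58% in LLC1, and 22% and 22.2% in LLC1 without that library.

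**Figure D4:**
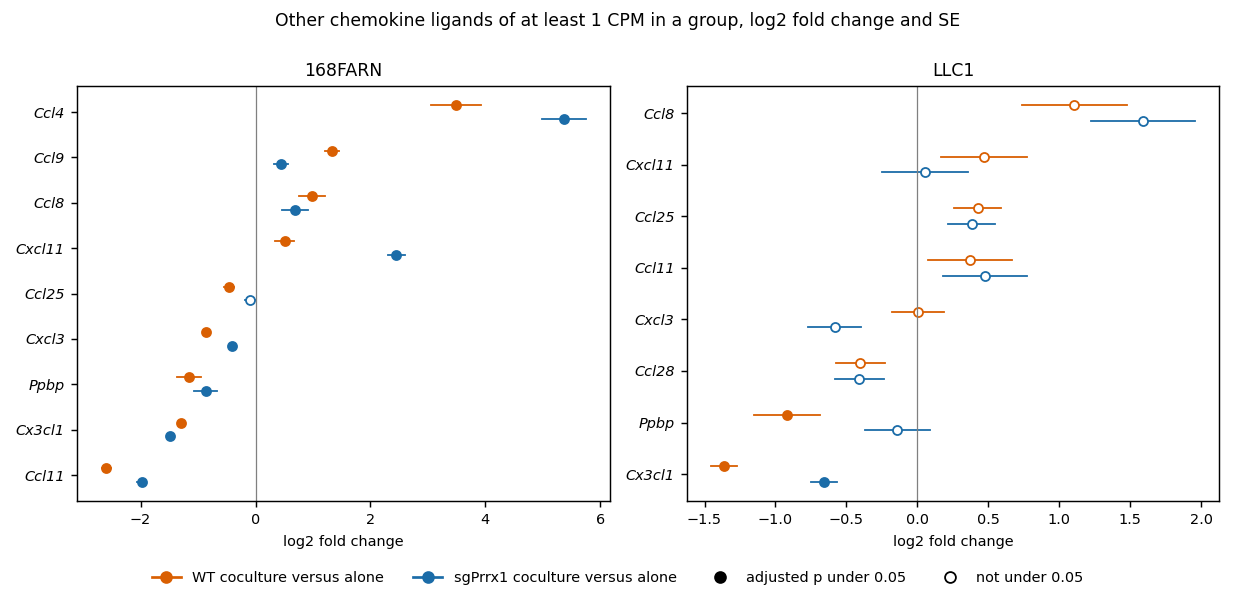
Fitted log2 fold changes (horizontal axis, bars are SE) of the other chemokine ligands with a mean of at least 1 CPM in a group, 9 genes in 168FARN and 8 in LLC1, for WT and sgPrrx1 coculture against cells alone, filled where the adjusted p was under 0.05. Ccl4 lies furthest to the right in 168FARN, and Cx3cl1 lies furthest to the left in LLC1.

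Other chemokine ligands moved in both directions. Of 28 listed, 13 were tested in 168FARN, and 6 rose and 6 fell in WT coculture, 5 rose and 4 fell in sgPrrx1 coculture, and 5 were higher and 3 lower with sgPrrx1 than with WT fibroblasts. Over all genes 25.7% rose and 24.1% fell in sgPrrx1 coculture, and 26.9% were higher and 33.1% lower between the cocultures. Ccl4, a CC chemokine that draws macrophages, was at 0 to 0.0935 CPM without fibroblasts, 0.639 to 0.759 CPM with WT fibroblasts and 2.52 to 2.82 CPM with sgPrrx1 fibroblasts, and rose in both (edgeR adjusted p 3.10e-05 and 6.70e-07). Ccl11, the eosinophil attractant eotaxin, was at 30.9 to 32.4, 4.79 to 5.66 and 7.06 to 8.97 CPM and fell by 2.59 on the log2 scale in WT coculture (edgeR adjusted p 8.34e-10). Ccl9 rose with WT fibroblasts (log2 fold change 1.33, edgeR adjusted p 2.45e-06). Cx3cl1, the membrane-bound fractalkine, fell in WT coculture of both lines, from 56.3 to 60.9 CPM to 23.6 to 24.2 CPM in 168FARN (edgeR adjusted p 1.99e-10) and from 90.8 to 91.3 CPM to 32.5 to 37.6 CPM in LLC1 (edgeR adjusted p 0.000284). Ppbp was the only other of 12 tested in LLC1 to pass in WT coculture (log2 fold change -0.92, edgeR adjusted p 0.0469), and without sgPrrx1 replicate 3 3 of 13 rose and 2 fell.

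Genes of the pathways that act around chemokines were counted from lists chosen by function. Of 24 interferon response genes, 19 rose and 2 fell in WT coculture and 22 rose and 0 fell in sgPrrx1 coculture of 168FARN, with median log2 fold changes of 0.38 and 0.99. Over all genes 33.4% and 30.7% were called higher and lower in the first comparison and 25.7% and 24.1% in the second. Ifit3, an antiviral effector, was at 10.6 to 11.2 CPM without fibroblasts, 35.1 to 36.7 CPM with WT fibroblasts and 68.7 to 72.5 CPM with sgPrrx1 fibroblasts and Ifi44 at 27.3 to 30.9, 55.7 to 57.4 and 111 to 114 CPM, in the same 3 steps as Cxcl10. Mx2, an antiviral GTPase, and Cmpk2 also rose in WT coculture (log2 fold change 0.83 and 2.13, edgeR adjusted p 3.75e-07 and 0.00302). In LLC1 1 rose and 3 fell in WT coculture and 0 rose and 5 fell in sgPrrx1 coculture (2.01% and 2.31% of all genes), and Irf1 (82.3 to 87.1 CPM without fibroblasts, 53.5 to 56.0 CPM in WT coculture, edgeR adjusted p 0.0140) was lower, as Cxcl10 was. Rsad2, an antiviral enzyme, was lower as well (log2 fold change -0.61, edgeR adjusted p 0.00979), while Gbp2 rose (0.56, edgeR adjusted p 0.0125). Without LLC1 sgPrrx1 replicate 3 the counts were 2 and 13 in WT coculture, beside 22% and 22.2% of all genes, and 1 and 19 in sgPrrx1 coculture, beside 12.5% and 14.2%.

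Of 20 NF-κB pathway genes, 7 rose and 3 fell in WT coculture and 5 rose and 7 fell in sgPrrx1 coculture of 168FARN, with median log2 fold changes of 0.03 and -0.05. Over all genes 33.4% rose and 30.7% fell in the first comparison and 25.7% and 24.1% in the second. Between the cocultures 3 of the 20 were higher and 13 lower with sgPrrx1 fibroblasts, beside 26.9% and 33.1% of all genes. Zfp36, which shortens the life of cytokine mRNAs, rose in 168FARN with WT fibroblasts (log2 fold change 0.68, edgeR adjusted p 2.29e-07) and fell by 0.80 on the log2 scale in LLC1 (edgeR adjusted p 0.00171). Birc3 and Bcl3 also rose in 168FARN (log2 fold change 1.87 and 0.44, edgeR adjusted p 0.00377 and 5.49e-06) and the adaptor Traf2 fell (-0.42, edgeR adjusted p 0.00284). In LLC1 0 of the 20 rose and 3 fell in WT coculture, Nfkb1 and Nfkbie beside Zfp36 (log2 fold change -0.40 and -0.46, edgeR adjusted p 0.0483 and 0.0457), and without sgPrrx1 replicate 3 0 rose and 12 fell, beside 22% and 22.2% of all genes. Of 17 inflammatory cytokine and adhesion genes, 9 rose and 4 fell in WT coculture of 168FARN, and of 13 tested in LLC1 4 rose and 1 fell, or 5 and 4 without sgPrrx1 replicate 3. Il33, an alarmin, rose in both lines, from 0.623 to 0.945 CPM to 16.7 to 19.2 CPM in 168FARN (edgeR adjusted p 1.89e-10) and from 17.1 to 18.9 CPM to 85.7 to 91.4 CPM in LLC1 (edgeR adjusted p 0.000333). Il6 rose in WT coculture of 168FARN to 2.34 to 2.39 CPM from at most 0.185 CPM (edgeR adjusted p 1.27e-06), as Csf2 did (log2 fold change 2.65, edgeR adjusted p 1.10e-05), and Icam1, an adhesion protein, fell (-3.04, edgeR adjusted p 0.00115). In LLC1 the macrophage growth factor Csf1 fell from 791 to 808 CPM to 442 to 462 CPM (edgeR adjusted p 0.00185), and Csf3 rose (log2 fold change 1.68, edgeR adjusted p 0.0144). With 9 libraries Il6 was lower in LLC1 sgPrrx1 coculture than alone (log2 fold change -0.995, edgeR adjusted p 0.0298). It was not called in LLC1 WT coculture (-0.64, edgeR adjusted p 0.0735).

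Of 14 cytokine receptors, 2 rose and 5 fell in WT coculture of 168FARN, with Tlr2 from 150 to 151 CPM to 27.5 to 30.0 CPM (edgeR adjusted p 2.59e-12), and 0 rose and 1 fell in LLC1 (Tnfrsf1b, edgeR adjusted p 0.0163). Without LLC1 sgPrrx1 replicate 3 the LLC1 count was 2 higher and 9 lower, beside 22% and 22.2% of all genes. Tlr4 fell as well in 168FARN (log2 fold change -0.79, edgeR adjusted p 6.84e-08), and the interleukin receptors Il1r1 and Il1rl1 rose (0.73 and 1.02, edgeR adjusted p 5.51e-08 and 6.36e-05). Of 5 genes tested for shedding and cleavage of ligands, 2 rose and 3 fell in 168FARN, where Adam17, a sheddase, fell by 0.39 on the log2 scale (edgeR adjusted p 1.55e-07), and 1 rose and 0 fell in LLC1, or 1 and 1 without sgPrrx1 replicate 3. The matrix metalloproteases Mmp14 and Mmp2 rose in 168FARN, from 59.7 to 62.3 CPM to 150 to 154 CPM (edgeR adjusted p 5.85e-11) and from 9.16 to 9.83 CPM to 29.2 to 32.9 CPM (edgeR adjusted p 1.45e-09), and Mmp9 fell (log2 fold change -1.22, edgeR adjusted p 1.98e-11).

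Marker lists gave the following calls in WT coculture against cells alone. Of 6 leukocyte markers tested in 168FARN 4 rose, with Csf1r and S100a8 among them, and 2 fell (Cd68 and Lyz2), of 4 endothelial markers 1 rose (Cdh5) and 1 fell (Vwf), and of 4 epithelial markers 3 rose and 0 fell. Krt19 had no count in 168FARN alone or in sgPrrx1 coculture and was at 2.90 to 3.18 CPM in WT coculture. In LLC1 4 of 12 fibroblast markers rose and 2 fell, 1 of 3 leukocyte markers rose (Cd68, 15.7 to 17.0 CPM alone and 35.9 to 37.7 CPM in WT coculture), 1 of 3 endothelial markers rose (Kdr, 5.49 to 6.46 CPM in WT coculture from at most 0.0368 CPM) and 1 fell, and 1 of 2 epithelial markers rose, where 4.25% of all genes were called higher and 4.58% lower. When sgPrrx1 replicate 3 was left out, 7 of 13 fibroblast markers rose and 4 fell, 3 of 3 leukocyte markers rose, 1 of 3 endothelial markers rose and 1 fell, and 2 of 4 epithelial markers rose, beside 22% and 22.2% of all genes.

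Within 168FARN, the members fell into sets that moved together over the 9 libraries, as Pearson's r of log2(CPM + 1), which here reflects mostly the 3 group means. Ccl7 and Cxcl1 had r = 0.99 and Ccl2 and Cxcl1 had r = 0.97, Cxcl12 and Cxcl16 had r = 0.98, and Cxcl1 and Cxcl12 had r = -0.99. Cxcl10 went with Cxcl2 (r = 0.93) and Ccl5 (r = 0.89). Among 10868 genes with a mean of at least 100 counts, the 2 most like Ccl2 were Timm23 and Psmb1 (r = 1.00 for both), those most like Cxcl12 were Slc4a7 and Col5a1 (r = 1.00 for both), and those most like Cxcl10 were Rnf11 and Ifit3b (r = 1.00 for both). For Cxcl1 they were Brdt and Thoc1, for Cxcl5 Creg1 and Atp6ap2, and for Ccl7 Psma6 and Coa3, all at r = 1.00. For Cxcl16 they were Gnao1 and Nfil3 (both 0.99), for Ccl20 Bub3 and Zfand2b (both 0.99), for Ccl5 Atp6v1g1 and Ube2g1 (both 0.99), and for Cxcl2 P2rx3 and Csrp1 (both 0.98).

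In LLC1, the genes most like Ccl20 over the 9 libraries were Jun and Nrbp2 (r = 1.00 and 0.99), and without sgPrrx1 replicate 3 they were Rmnd1 and Dusp1 (both 1.00). For Cxcl10 they were Kifc2 and Sdc4 (both 0.99), and Mvd and Nr4a1 (both 1.00) without that library. Ccl20 and Cxcl10 themselves had r = 0.98 over the other 8 libraries. For the remaining 7 tested genes the most alike gene had r from 0.94 to 1.00 without that library, and Ndufa6 for Ccl2, Dcakd for Ccl5 and Zfp64 for Cxcl5 came first with and without it.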

How the data were processed

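RNA of 18 libraries was sequenced as 100 bp paired-end reads. Per the labels and methods, the authors trimmed reads with Trimmomatic, aligned them to mm10 with STAR and counted genes with HTSeq (strand setting and treatment of multi-mapping reads are not given in the sources used here). The methods give tool versions, and name a later correction of batch effects by ComBat-seq, in a passage on the RNA of fibroblasts; whether either holds for these cancer cell counts is not stated. The authors deposited 1 table of whole-number counts per line, and every sample column was matched to its label. Counts were scaled by TMM and tested with edgeR 4.0.16 (quasi-likelihood, filterByExpr, one mean per group, 2-sided, Benjamini-Hochberg over all genes tested, threshold 0.05) in R 4.3.3, in 9-library fits per line and an 18-library fit for differences between the lines. The filter left 13540 genes in 168FARN, 12873 in LLC1 and 14365 in the joint fit. CPM were computed from the counts and TMM sizes, and levels per kb used the longest coding transcript of GENCODE M1. Likeness was Pearson's r of log2(CPM + 1) over genes with a mean of at least 100 counts.

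The members and all gene lists were chosen with earlier results of these data known. The text names all 10 members, receptors of theirs, the 2 most alike genes per member, and, from each other list, genes among the up to 4 per line with the largest change in WT coculture among called genes of at least 1 CPM. Other genes named for a count of 0 and the overlapping genes were chosen after their values were seen, and some genes of the lists are not reported here. Alternatives were DESeq2 1.42.0, limma voom 3.58.1 with sample quality weights, RLE or no scaling factors, 2 other filters, a replicate block, only the 2 groups compared, and leaving out each library. Tested on simulated data with 2-fold changes, edgeR recovered 82.7% of 197 changed genes for WT coculture against cells alone in 168FARN (13354 genes) and 54.6% of 194 in LLC1 (12710 genes). Of its calls, 6.32% and 2.75% were false. Far fewer genes were changed than were called in the real comparisons, and the spread was that of all 9 libraries, so recovery in the real data can differ. Depth was 48315037 to 103997557 counts a library, and a count of 0 allows up to 3 counts, 0.0283 to 0.0626 CPM, for counting error only. Replicate numbers were not shown to mark shared cultures.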

Additional observations from a re-analysis of the deposited data

Results flagged for a closer look

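These values stood out because the response of a gene differed between the lines in the interaction test of edgeR (adjusted p under 0.05). Each is the log2 fold change in LLC1 minus that in 168FARN.

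For WT coculture against cells alone the difference was 0.72 for Cxcl1, -1.81 for Cxcl10, 1.06 for Ccl2, 1.11 for Ccl20, 1.75 for Ccl7, 1.28 for Cxcl5 and -3.15 for Cxcl16. For Cxcl12 the fitted difference was 5.37, which depends on the prior count because LLC1 alone had no count, and is no bound.

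For sgPrrx1 coculture against cells alone it was -0.49 for Cxcl1, -2.71 for Cxcl10, -1.17 for Ccl20 and 0.87 for Cxcl5. For sgPrrx1 against WT coculture it was -1.21 for Cxcl1, -0.90 for Cxcl10, -1.26 for Ccl2, -2.27 for Ccl20, -1.47 for Ccl7 and 2.09 for Cxcl16, and the fitted value for Cxcl12 was -2.91, on 2 counts in LLC1 sgPrrx1 coculture and not called without LLC1 sgPrrx1 replicate 2 (adjusted p 0.0595). Cxcl1, Cxcl10 and Ccl20 passed in all 3 comparisons, with the call of Cxcl1 for sgPrrx1 coculture against cells alone lost under 5 of 25 alternatives (adjusted p up to 0.0585). Fibroblast source, table and line changed together and cannot be told apart.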

How the results depend on the processing

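Of 1965 alternative values over 97 results, 1850 kept their direction and their side of the threshold, 40 lost and 48 gained a call, and 27 changed sign. The 168FARN counts of 9, 8 and 9 called genes ranged over 9 to 10, 6 to 8 and 9 to 10 under all alternatives run. In the main fits 8676, 6735 and 8130 of all 13540 genes were called. In LLC1 limma voom called 6 genes in WT coculture, 6 in sgPrrx1 coculture and 4 between the cocultures, beside 7549, 6183 and 4681 of all 12873 genes. Fitting only the 2 groups called 5 and 1 against cells alone, beside 5167 of 12691 and 27 of 12564 genes. Leaving out each library gave 1 to 7 calls in WT coculture, 1 to 5 in sgPrrx1 coculture and 0 to 1 between the cocultures, the highest without sgPrrx1 replicate 3. Over all 13034 to 13102 genes of these fits, 273 to 5779, 52 to 3495 and 3 to 745 were called. The difference between the lines for sgPrrx1 coculture against cells alone was called for 8 genes by limma voom, beside 5915 of 14365 genes. It was called for 3 to 7 when a library was left out, beside 1280 to 4099 of 14577 to 14640 genes.

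The signs that changed belong to values near 0 or to Cxcl12 in LLC1. Cxcl12 in 168FARN sgPrrx1 coculture against cells alone was 0.0011 with DESeq2 and 0.0014 with RLE scaling, Ccl2 in the same LLC1 comparison was 0.0029 with both, and Ccl7 there was -0.0018 with library totals. With limma voom Ccl5 in LLC1 WT coculture was 0.031 and Cxcl10 between the LLC1 cocultures was -0.022. Leaving out each library gave, for sgPrrx1 coculture against cells alone, -0.051 to 0.030 for Cxcl12 and -0.042 to 0.47 for Cxcl16 in 168FARN, and -0.18 to 0.090 for Ccl2, -0.030 to 0.14 for Ccl7 and -0.044 to 0.25 for Cxcl5 in LLC1. It gave -0.029 to 0.14 for Ccl2 and -0.21 to 0.040 for Ccl5 in LLC1 WT coculture against cells alone, and -0.22 to 0.060 for Ccl2 and -0.019 to 0.12 for Cxcl10 between the LLC1 cocultures. The difference between the lines ranged over -0.11 to 0.27 for Cxcl2 in WT coculture and -0.00093 to 2.95 for Cxcl12 in sgPrrx1 coculture. The cause was not tested.

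When a block for replicate number was added, the counts were 9, 8 and 9 in 168FARN and 2, 2 and 0 in LLC1, where Cxcl1 lost its call in sgPrrx1 coculture, and 8, 6 and 7 for the differences between the lines. Over all genes they were 8553, 6654 and 8044 of 13540 in 168FARN and 1028, 381 and 2 of 12873 in LLC1. Between the lines they were 4655, 2010 and 3177 of 14365. Same-numbered libraries correlated at -0.072 to 0.23 in 168FARN, 4 of 9 pairs over 0.1, and at -0.19 to 0.67 in LLC1, 7 of 9 over 0.1. All 3 such pairs of LLC1 alone and sgPrrx1 coculture exceeded 0.1 (0.23, 0.47 and 0.67), the comparison in which Cxcl1 lost its call, although alone replicate 2 correlated more with sgPrrx1 replicate 1 (0.51). Over all groups the numbers were not shown to pair the libraries. Depth limits Cxcl12 in LLC1 and Ccl20, Cxcl2 and Cxcl16 at no more than 173 counts a library in 168FARN.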
